A study of Mus musculus with 6 samples.

Results

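The genes described here are Igf2, Cdkn1c and Snrpn, 3 imprinted genes of mouse chromosome 7, measured in satellite cells, which are stem cells of skeletal muscle, grown in culture. They were chosen by the gene symbol that the platform annotation gives to each array feature, and where a gene has several features the one with the highest mean intensity counts. Each of the 3 symbols belonged to 1 feature, so the mean intensity decided nothing, and the 3 genes are 3 of 6160 named genes with a tested feature. The table held 10500 features in all, and all 3 members had a value on all 6 arrays and passed the requirement of at least 2 values per group. Earlier results of these data were known when the genes were picked, so the p-values below describe these arrays and do not support the choice.

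Differentiated cultures were held for 72 hours in a medium of 10% horse serum with insulin, labelled as 1 mM, and no fibroblast growth factor. Proliferating cultures were kept in growth medium with basic fibroblast growth factor at 6.6 ng/ml. Both came from hind limb muscles, pooled within each of 3 adult male Swiss Webster mice, and each mouse gave 1 culture of either kind, so that equal replicate numbers mark the same mouse. The cells were a mix of purified myoblast clones after repeated plating that removed fibroblasts, and RNA was measured on 1-colour CodeLink arrays, 3 per group. Nothing else in genotype or treatment was labelled. The number of arrays limits the precision of every value.

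Imprinted genes are expressed mainly from the copy inherited from 1 parent, through marks laid down on DNA in the germ line. Igf2, insulin-like growth factor 2, is a secreted growth factor made from the paternal copy, and it acts on differentiating myoblasts as an autocrine signal. Cdkn1c encodes p57, an inhibitor of cyclin-dependent kinases made from the maternal copy, which takes part in cell cycle exit during muscle development. Snrpn encodes SmN, a protein of the spliceosomal small nuclear ribonucleoprotein (snRNP) core that is most abundant in brain, and is made from the paternal copy of the region deleted in Prader-Willi syndrome in humans. The arrays do not separate parental copies, so they measured total RNA from both.

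Snrpn is transcribed from several start sites, and the most downstream one in the RefSeq promoter table is also the start of Snurf, a small upstream reading frame on the same transcript. The 250 bases before that shared start and before the most upstream Snrpn start are shown because Snrpn is the member that changed and Snurf the gene that shares its start. The first Igf2 start is shown because it is the only 1 of 4 listed Igf2 starts whose window held an E-box. All are on the minus strand, from RefSeq on GRCm38.p6, written 5′ to 3′, with capitals marking each E-box, CANNTG. Sites of myogenic factors such as MyoD and myogenin are among those with this general pattern, and binding was not tested. The pattern reads the same on both strands.
Snrpn start shared with Snurf, chr7:60005200-60005449: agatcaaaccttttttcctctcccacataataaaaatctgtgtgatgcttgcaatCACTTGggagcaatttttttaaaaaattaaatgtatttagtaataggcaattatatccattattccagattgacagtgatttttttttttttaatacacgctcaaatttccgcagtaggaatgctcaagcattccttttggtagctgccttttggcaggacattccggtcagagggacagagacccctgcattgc
Snrpn most upstream start, chr7:60450178-60450427: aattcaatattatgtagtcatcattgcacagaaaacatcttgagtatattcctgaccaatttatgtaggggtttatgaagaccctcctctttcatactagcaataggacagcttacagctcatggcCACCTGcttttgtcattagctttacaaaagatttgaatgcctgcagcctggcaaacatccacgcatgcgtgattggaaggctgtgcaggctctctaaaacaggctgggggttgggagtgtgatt
Igf2 first start, chr7:142666817-142667066: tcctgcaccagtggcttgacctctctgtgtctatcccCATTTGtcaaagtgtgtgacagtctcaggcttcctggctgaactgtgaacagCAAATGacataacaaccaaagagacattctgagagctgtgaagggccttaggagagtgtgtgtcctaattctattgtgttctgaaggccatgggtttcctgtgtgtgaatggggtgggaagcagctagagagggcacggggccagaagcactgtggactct
The shared Snrpn and Snurf window held 1 E-box and 3 CG dinucleotides, and the upstream Snrpn window 1 and 2. The Igf2 window held 2 E-boxes and 1 CG, and the windows of the other 3 Igf2 starts held 0 E-boxes and 10, 22 and 6 CG. Over 32817 distinct windows of this length in the table, 66.2% held at least 1 E-box and 12.2% at least 3, and the median window held 6 CG. The 3 upstream Snrpn windows were 76.7% to 79.8% identical to each other in pairwise alignment and 50.9% to 53.0% identical to the shared one. These letter matches describe the windows only. Which start each array probe reads is not given in the sources used here.

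Intensities are in array units on a linear scale, and median intensities of the 6 arrays lay between 0.883 and 0.939. An intensity of 0.179, the 25th percentile of positive values, marks dim features below, and 0 of 6 arrays were under it for any of the 3 members. Of 12 skeletal muscle lineage markers 10 were measured, and none was dim on 4 or more arrays. Endothelial, macrophage and Schwann marker sums were at most 0.947, 1.15 and 0.215 in differentiated and 0.825, 1.4 and 0.135 in proliferating cultures. The Schwann value is that of S100b alone, the only 1 of 5 listed markers that was measured, and S100b was dim on at least 4 arrays. Of 5 measured endothelial markers Pecam1, Cdh5, Kdr and Tie1 were dim on at least 4 arrays and Tek was not, and of 4 measured macrophage markers Itgam, Ptprc and Lyz2 were and Cd14 was not. The fibroblast markers summed to 50.1 to 189 in differentiated and 39.0 to 78.7 in proliferating cultures. Of 7 measured, Thy1, Dpt and Lum were dim on at least 4 arrays, and Col1a2, Pdgfra, Fap and Tcf21 were not. Smooth muscle markers summed to 9.64 to 23.5 in differentiated and in proliferating cultures to 4.23 to 18.2, with Myh11 and Cnn1 dim on at least 4 arrays and Smtn and Tagln not. The 2 measured of 6 adipocyte markers, Fabp4 and Retn, summed to 0.286 to 1.5 in differentiated and 0.202 to 2.45 in proliferating cultures, and neither was dim on 4 or more arrays. The part of other cells in the results was not tested, and in a culture fewer cells of a type and less RNA per cell cannot be told apart. On the first principal component the differentiated arrays lay at 79.3, 39.5 and 23.4 and the proliferating arrays at -5.56, -76.9 and -59.7, so proliferating replicate 1 stood apart from the other proliferating arrays. The summed level of 17 genes of myogenic differentiation was 1641 to 2398 in differentiated cultures. It was 1281 in proliferating replicate 1 and 186 and 512 in the other proliferating cultures. The sum of 16 genes of dividing cells was 23.0 to 33.6 in differentiated cultures. By that sum proliferating replicate 1, at 110, lay nearer to proliferating replicates 2 and 3, at 167 and 156.

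Snrpn rose in differentiated cells, with the same direction in all 3 mice, and it was the only member that passed the test. The Snrpn feature read 11.5, 9.90 and 8.58 in differentiated replicates 1, 2 and 3, against 1.85, 2.12 and 1.82 in proliferating replicates 1, 2 and 3. The lowest differentiated culture lay well above the highest proliferating one, so the groups did not overlap, and the 3 proliferating cultures were close to each other. Means were 9.99 ± 1.46 in differentiated and 1.93 ± 0.164 in proliferating cultures (SD, n = 3 each). The log2 difference, differentiated minus proliferating, was 2.37 ± 0.39 (SE, 5.16-fold, limma adjusted p = 0.0340), and the mice singly gave 2.63, 2.23 and 2.24. Snrpn was among the less variable features within groups: 92.5% of features had a higher log2 SD among differentiated and 96.5% among proliferating cultures. Of all tested features, 95.9% had a smaller absolute log2 difference.

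**Figure D1:**
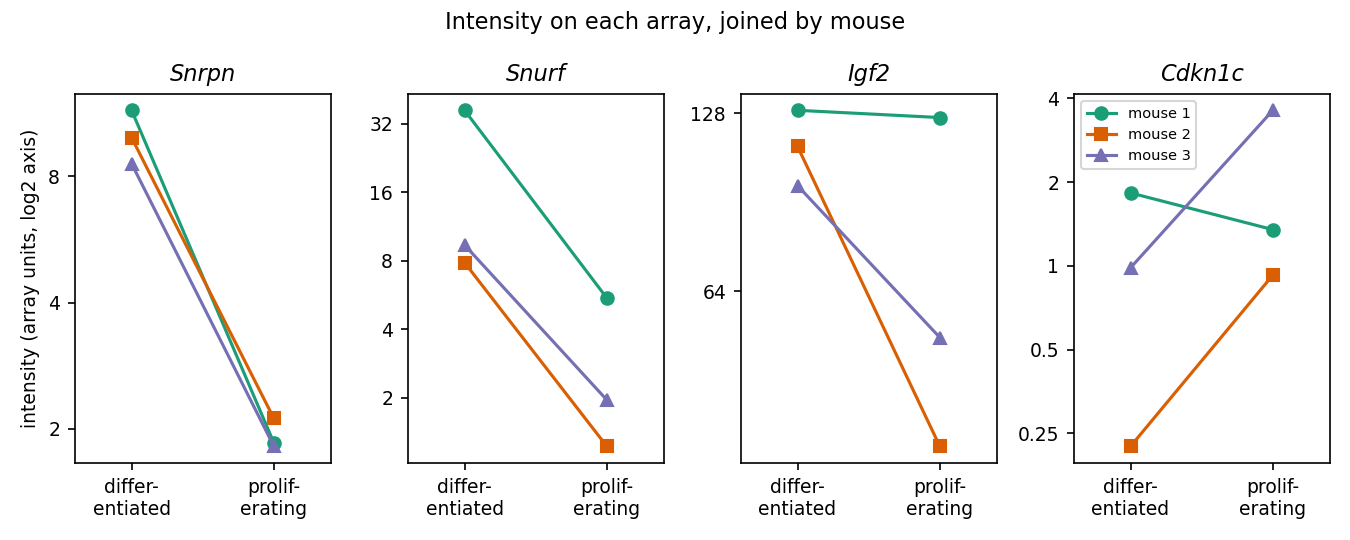
Intensity in array units on a log2 axis for Snrpn, Snurf, Igf2 and Cdkn1c, with differentiated cultures at the left and proliferating cultures at the right of each panel, and 1 line per mouse. The Snrpn lines run side by side, the Igf2 line of mouse 1 is nearly flat at 129 and 126, and the Cdkn1c line of mouse 1 slopes the other way from those of mice 2 and 3.

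With mouse in the fit, Snrpn passed when it was a fixed block, just under the threshold of 0.05 (limma adjusted p = 0.0495), and also as a random effect (limma adjusted p = 0.0037). Proliferating replicate 1, the culture that stood apart, had a Snrpn intensity between those of the other proliferating cultures. Leaving it out gave a Snrpn difference of 2.34, short of the threshold (limma adjusted p = 0.0582). Leaving out any 1 of the 6 arrays ended the call, with differences of 2.26 to 2.47 and limma adjusted p between 0.0582 and 0.166, so the call needed all 6 arrays while the size of the difference moved little.

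Snurf, which encodes a short protein on the transcript it shares with Snrpn, was measured by a feature of its own. It read 36.6, 7.84 and 9.37 in differentiated replicates 1 to 3, against 5.47, 1.22 and 1.95 in proliferating replicates 1 to 3. Mouse 1 was the highest in both groups, and within every mouse the differentiated culture was the higher one. The log2 difference was 2.56 ± 0.77, with 2.74, 2.68 and 2.26 in the 3 mice. Without mouse in the fit it did not pass (limma adjusted p = 0.164), and it did with mouse as a fixed block or random effect (limma adjusted p = 0.0495 and 0.0150). Leaving out 1 array gave differences of 1.86 to 3.17. Snurf and Snrpn overlap, so their features are not independent measurements of separate genes, and how much RNA both probes read in common was not tested.

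Igf2 was bright in every culture and its mean was higher in differentiated cells, but the groups overlapped and the difference did not pass. The Igf2 feature read 129, 112 and 96.5 in differentiated replicates 1 to 3, against 126, 35.0 and 53.4 in proliferating replicates 1 to 3. Proliferating replicate 1 lay among the differentiated cultures, above the second and the third of them, and the other proliferating cultures lay below all 3. Means were 113 ± 16.5 in differentiated and 71.4 ± 48.0 in proliferating cultures (SD, n = 3 each). The log2 difference was 0.86 ± 0.55 (1.81-fold, limma adjusted p = 0.522). The mice gave 0.04, 1.69 and 0.85, and 69.3% of features had a smaller absolute difference. With mouse as a fixed block or random effect Igf2 did not pass either (limma adjusted p = 0.269 and 0.201). The size depended on single arrays and on scaling: it was 1.37 without proliferating replicate 1, 0.45 without proliferating replicate 2 and 0.38 after quantile normalization (limma adjusted p = 0.241, 0.852 and 0.759).

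Cdkn1c did not pass, its groups overlapped, and its cultures varied widely within each group. The Cdkn1c feature read 1.83, 0.224 and 0.984 in differentiated replicates 1 to 3, against 1.35, 0.926 and 3.62 in proliferating replicates 1 to 3. The lowest value was in differentiated replicate 2 and the highest in proliferating replicate 3, and mouse 1 went the other way from mice 2 and 3. Means were 1.01 ± 0.802 in differentiated and 1.97 ± 1.45 in proliferating cultures (SD, n = 3 each). The log2 difference was -1.16 ± 0.84 (limma adjusted p = 0.591), and the mice gave 0.44, -2.04 and -1.88. Only 6.84% of features had a higher log2 SD among differentiated cultures and 17.1% among proliferating ones. Cdkn1c did not pass with mouse as a fixed block or random effect (limma adjusted p = 0.291 and 0.25). Leaving out 1 array gave differences of -1.82 to -0.30, with the smallest without differentiated replicate 2.

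**Figure D2:**
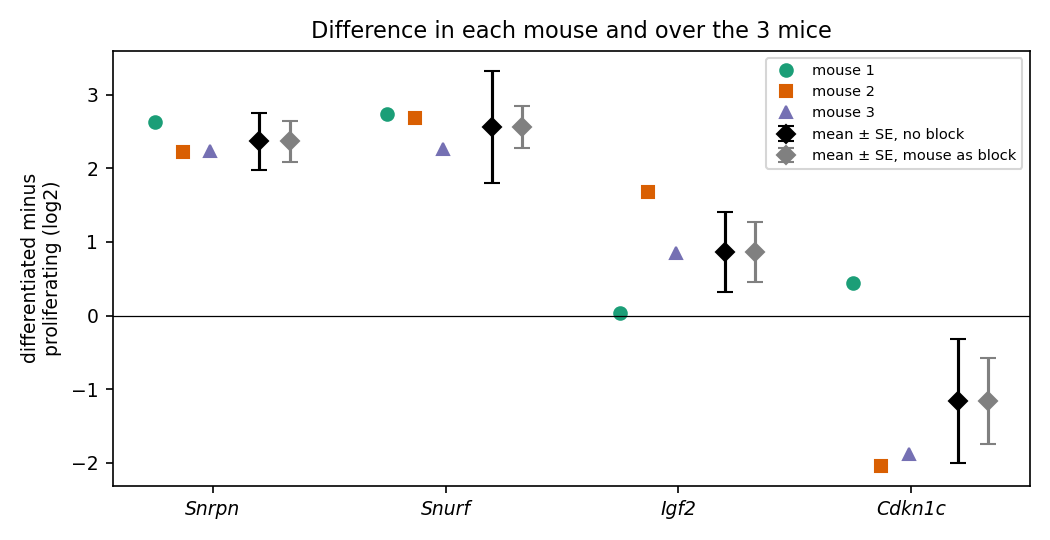
Log2 difference, differentiated minus proliferating, for each mouse and as the mean over 3 mice with its SE from limma, without a block and with mouse as a fixed block. The Snrpn and Snurf points all lie above 2, those of Igf2 between 0.04 and 1.69, and those of Cdkn1c on both sides of 0.

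Counted over the members, 1 of 3 rose and 0 of 3 fell without a block, where 0.285% of 10186 features rose and 1.01% fell. With mouse as a fixed block the members' count was the same, and 0.56% of features rose and 0.874% fell. With mouse as a random effect it was again 1 and 0, and 5.07% rose and 5.28% fell. The groups did not overlap for 1 of 3 members, Snrpn, and for 20.7% of the 10128 features with 6 values. The calls were thus those of 1 gene. Over the 6 arrays the log2 values of Igf2 and Snrpn had a Pearson r of 0.59, Igf2 and Cdkn1c -0.23, and Snrpn and Cdkn1c -0.47. These correlations describe 6 arrays that share 3 mice and 2 media.

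Among other imprinted genes few passed. Of 61 genes on a list of mouse imprinted genes, 34 were measured, with a median log2 difference of 0.25 against 0.20 over all features tested, 20 positive and 14 negative. After quantile normalization these medians were 0.12 and 0.04, so differences near 0 depend on the scaling. Without a block 1 of the 34 rose, Snrpn, and 0 fell. With mouse as a fixed block Snrpn and Snurf rose and 0 fell, and with mouse as a random effect Snrpn, Snurf and Magel2 rose and Mest and Peg12 fell. Over all features 0.285%, 0.56% and 5.07% rose in these 3 fits, and 1.01%, 0.874% and 5.28% fell. The groups did not overlap for 8 of the 34, a share near the 20.7% of all features, and 8 were dim on at least 4 arrays.

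Mest, a paternally expressed gene of the hydrolase fold family, had the largest negative difference on the list. It read 5.51, 1.91 and 4.97 in differentiated replicates 1 to 3, against 22.6, 26.5 and 72.5 in proliferating replicates 1 to 3. Every differentiated culture lay below every proliferating one. The log2 difference of -3.23 ± 0.63 missed the threshold without a block and with a fixed block (limma adjusted p = 0.0560 and 0.0556) and passed in the fit with a random effect (limma adjusted p = 0.00713).

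Peg12 and Magel2 are paternally expressed genes of the same chromosome region as Snrpn. Magel2 is the nearest gene with a named feature on one side of Snrpn, and genes without a feature may lie between them. Peg12 read 0.238, 0.203 and 0.285 in differentiated against 1.14, 2.07 and 0.917 in proliferating replicates 1 to 3. Its log2 difference was -2.43 ± 0.46 (limma adjusted p = 0.0525 without a block, 0.0667 with a fixed block and 0.00817 with a random effect). Magel2, which encodes an adaptor of ubiquitin ligases, read 0.339, 0.229 and 0.348 in differentiated against 0.113, 0.115 and 0.0703 in proliferating replicates 1 to 3. Neither pair of groups overlapped, but all 3 proliferating Magel2 values were under the dim mark, so background limits the size of its log2 difference of 1.63 ± 0.44 (limma adjusted p = 0.124, and 0.0214 with a random effect). With a pseudocount of 0.179 that difference was 0.79. Peg12 was named after its values were seen.

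Ube3a, a ubiquitin ligase gene that is imprinted in neurons, is the nearest gene with a named feature on the other side of Snrpn. It read 22.8, 51.0 and 15.9 in differentiated against 10.3, 35.3 and 18.1 in proliferating replicates 1 to 3. Its groups overlapped and its log2 difference of 0.50 did not pass (limma adjusted p = 0.791). Plagl1, a zinc finger factor of imprinted gene networks, had 0.27, Gnas, a G protein subunit gene, 0.51, and Peg3 -0.07, and none of these 3 passed in any of the 3 fits. Dlk1, a transmembrane protein with repeats like those of Notch ligands, spread widely, at 1.41, 0.957 and 0.0893 in differentiated and 3.43, 0.154 and 0.0829 in proliferating cultures. Mouse 1 had the most Dlk1 and mouse 3 the least in either medium, and the log2 difference of 0.49 ± 1.51 was smaller than its error.

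**Figure D3:**
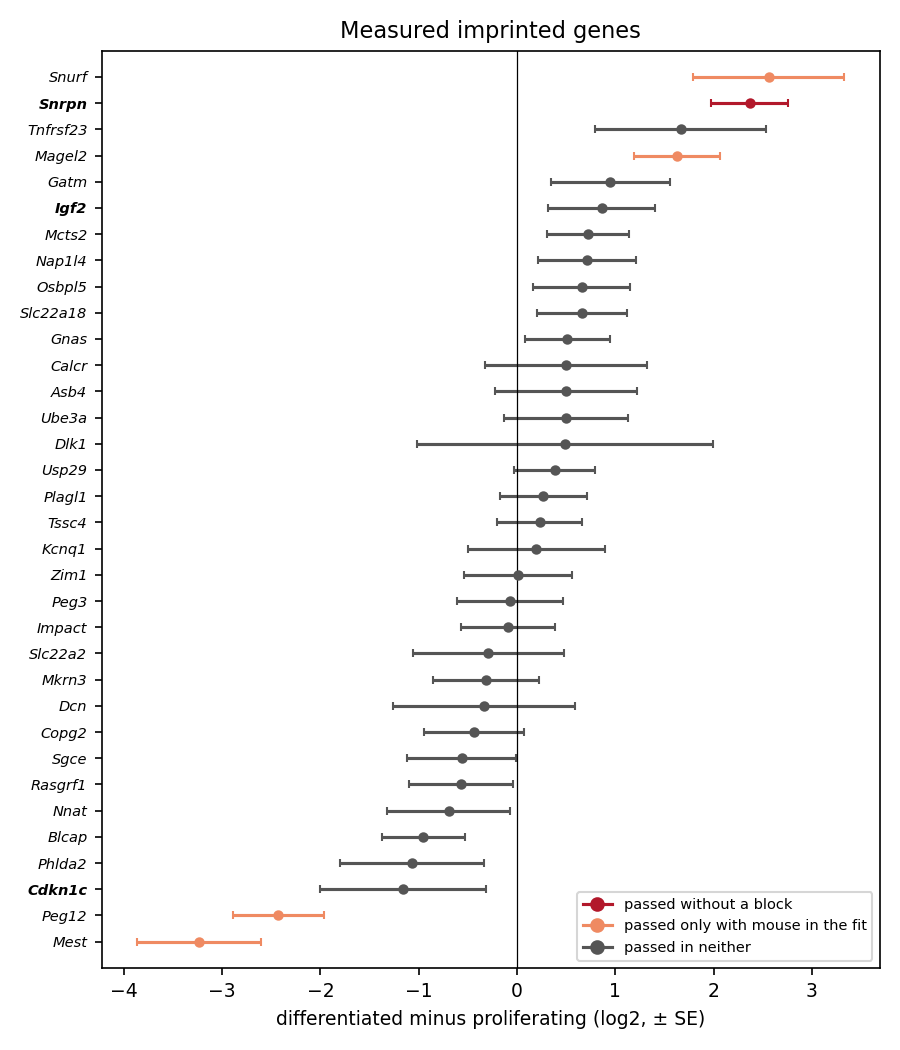
Log2 difference, differentiated minus proliferating, with its SE from limma for the 34 measured imprinted genes, 3 arrays per group, ordered by size, with Igf2, Cdkn1c and Snrpn in bold. Snurf and Snrpn stand at the top at 2.56 and 2.37, Peg12 and Mest at the bottom at -2.43 and -3.23, and most other genes within 1 of 0.

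Igf2 and Cdkn1c lie in the same distal part of chromosome 7, under separate imprinting control regions. Within 1 Mb of either, 22 other named genes were measured, with a median log2 difference of 0.51, 17 positive and 5 negative, 12 higher and 3 lower in all 3 mice. Over all features tested the median was 0.20, with 6255 of 10186 positive, so features at large also leaned to positive differences. The share of all features higher in all 3 mice is not given here. None of the 22 passed without a block or with a fixed block (limma, 0 rose and 0 fell), and 4 rose with mouse as a random effect. In the fit with a random effect 5.07% of all features rose. The 4 were not on the imprinted list: Dusp8, a phosphatase of MAP kinases, Tspan32, a tetraspanin, and Tnni2 and Tnnt3, the fast skeletal troponins I and T. The nearest of them to Igf2 on either side were Tnnt3 and Tspan32.

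Tnni2 had a log2 difference of 3.09, Dusp8 2.97, Tnnt3 2.29 and Tspan32 1.93 (with a random effect, limma adjusted p = 0.0144, 0.0111, 0.0325 and 0.0151). These 4 were named after their values were seen. The nearest genes with a named feature on either side of Igf2, the ribosomal protein gene Mrpl23 and the tyrosine hydroxylase gene Th, had differences of 0.59 and -0.12, and those of Cdkn1c, the potassium channel gene Kcnq1 and the transporter gene Slc22a18, 0.20 and 0.66. Kcnq1 was dim on 5 and Slc22a18 on 4 of 6 arrays, and none of these 4 neighbours passed in any of the 3 fits. Phlda2, a maternally expressed growth regulator next to Slc22a18, had -1.07 and was dim on 5 arrays.

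**Figure D4:**
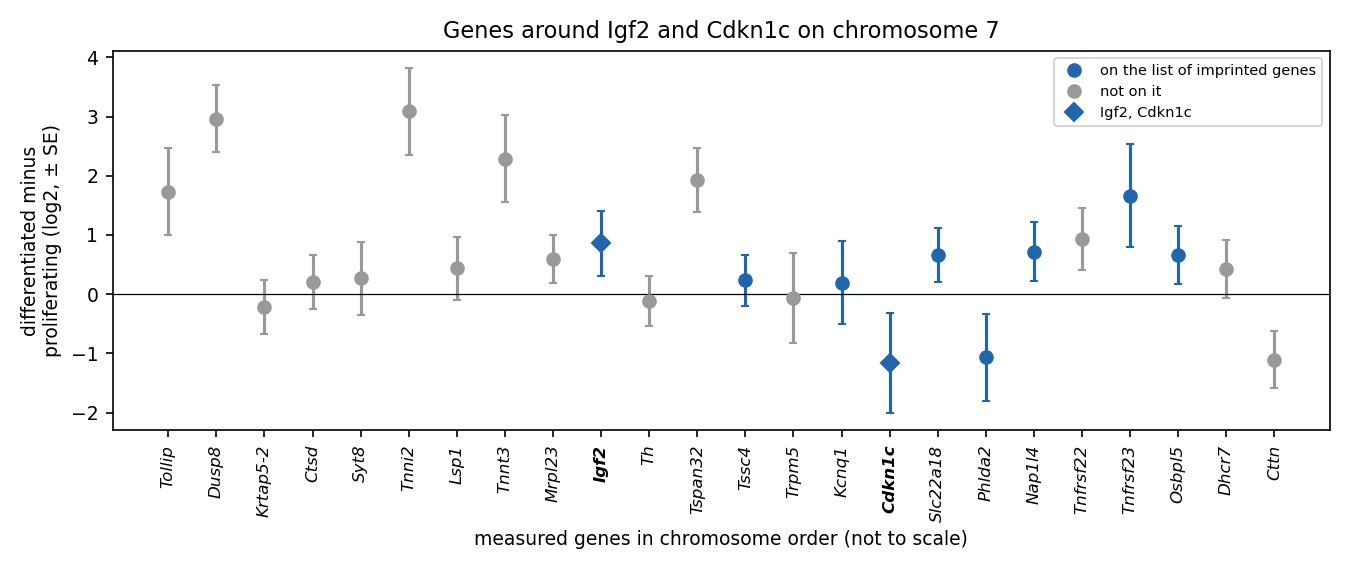
Log2 difference, differentiated minus proliferating, with its SE from limma for the genes measured within 1 Mb of Igf2 or Cdkn1c, in chromosome order and not to scale, with genes on the imprinted list in blue. The largest positive differences, 3.09 for Tnni2 and 2.97 for Dusp8, are of genes not on that list.

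For the insulin-like growth factor system around Igf2, of 19 listed ligands, receptors and binding proteins 12 were measured, with a median log2 difference of 0.35, 8 positive and 4 negative, and 0 passed in any of the 3 limma fits (0 at an unadjusted p under 0.05 without a block). Over all features 0.285% rose and 1.01% fell without a block, so 0 of 12 is near the background of that fit. The shares were 0.56% and 0.874% with a fixed block, and 5.07% and 5.28% with a random effect. Igf1, the other ligand of the type 1 receptor, read 0.496, 0.400 and 0.845 in differentiated against 0.524, 0.199 and 1.03 in proliferating replicates 1 to 3. Its groups overlapped, with a difference of 0.21 ± 0.66. Of the binding proteins, which hold the ligands outside cells, 6 were measured: Igfbp6 had 1.65 ± 0.96, Igfbp5 1.23 ± 0.93, Igfbp7 0.49 ± 0.78, Igfbp1 -0.69 ± 0.53, Igfbp3 -0.98 ± 0.76 and Igfbp4 -1.41 ± 0.76.

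Igfbp5 was highest in differentiated replicate 1, at 5.89, and the groups of all 6 binding proteins overlapped. Igfbp1 was dim on 6 arrays, Igfbp4 on 3 and Igfbp6 on 2. The Igfbp6 value of proliferating replicate 1 was under 0, at -0.0657, and was raised to the floor of 0.0236. The mice gave 4.17, -0.44 and 1.20 for Igfbp6, and with a pseudocount of 0.179 its difference was 0.72. Igf2bp3, which binds Igf2 mRNA, had -0.64, and Igf2bp1, of the same family, 0.10 with 5 dim arrays. The insulin receptor gene Insr had the smallest p on the list, at 0.90 ± 0.44 (limma adjusted p = 0.390), and was dim on 4 arrays. Downstream, 17 of 27 listed genes of insulin and insulin-like growth factor signalling were measured. Their median was 0.20, equal to that of all features to 2 decimals, and 0 passed in any of the 3 fits. Akt2, a kinase of this pathway, had the smallest p, at 0.96 ± 0.47 (limma adjusted p = 0.397). Without a block 0.285% of all features rose and 1.01% fell. These shares were 0.56% and 0.874% with a fixed block, and 5.07% and 5.28% with a random effect.

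Cdkn1c was also on a list of kinase inhibitors and their G1 targets, and no inhibitor on it passed without a block. Of 22 listed inhibitors and their G1 targets 17 were measured, with a median log2 difference of -1.28 against 0.20 over all features. This median is over inhibitors, cyclins and kinases together with Rb1, Rbl2, E2f1 and Pcna. The inhibitors measured were Cdkn1a at 1.32, Cdkn2c at -0.43, Cdkn1c at -1.16 and Cdkn2a at -1.28. Without a block 0 rose and 4 fell: Ccnd1, Ccne1 and Ccna2, which encode cyclins D1, E1 and A2, and E2f1, a transcription factor of S phase entry. With a fixed block Ccnd1 and Ccna2 fell, and with a random effect 6 fell and Cdkn1a rose. Over all features 1.01% fell without a block, 0.874% with a fixed block and 5.28% with a random effect. The shares that rose were 0.285%, 0.56% and 5.07%.

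Cdkn1a, which encodes the inhibitor p21 of the same family as p57, read 133, 104 and 58.4 in differentiated against 55.5, 32.5 and 28.8 in proliferating replicates 1 to 3. The groups did not overlap, though differentiated replicate 3 and proliferating replicate 1 were close. Its difference of 1.32 ± 0.50 did not pass without a block or with a fixed block (limma adjusted p = 0.268 and 0.0915) and passed with a random effect (limma adjusted p = 0.0426). Cdkn2c, an inhibitor of Cdk4 and Cdk6, had -0.43 and overlapping groups. On the log2 scale Ccnd1 differed by -3.79, Ccne1 by -2.53 and Ccna2 by -4.47 (limma adjusted p = 0.0308, 0.0337 and 0.0201). Ccnd3, the D cyclin that differentiated muscle cells keep, had 1.17 and did not pass.

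Among the snRNP genes measured, Snrpn alone passed. Of 34 listed core and spliceosomal snRNP proteins 14 were measured, with a median log2 difference of -0.31, 3 positive and 11 negative (-0.67, 2 and 12 after quantile normalization). The median over all features was 0.20 (0.04 after quantile normalization). In each of the 3 limma fits 1, Snrpn, rose and 0 fell. Over all features 0.285% rose without a block, 0.56% with a fixed block and 5.07% with a random effect. Snrpb, which encodes SmB, the core protein that SmN resembles, read 81.4, 19.8 and 40.2 in differentiated against 65.1, 49.3 and 45.3 in proliferating replicates 1 to 3. Its groups overlapped, with differentiated replicate 2 lowest, and its difference was -0.39 ± 0.57 (limma adjusted p = 0.830). Snrpd3, another core protein gene, had -0.75 ± 0.56, and Smn1, whose product assembles the core, -0.04 ± 0.80. On the list 5 genes were lower and 1, Snrpn itself, was higher in all 3 mice. The share of all features with 1 direction in all 3 mice is not given here. The groups did not overlap for 4 of the 14, against 20.7% of all features with 6 values. Beside Snrpn these were Snrpa1 (-1.11 ± 0.43), Lsm2 (-1.06 ± 0.46) and Snrpg (-0.72 ± 0.39), all lower in differentiated cultures, and none of these passed. The difference between Snrpn and these genes was not tested.

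**Figure D5:**
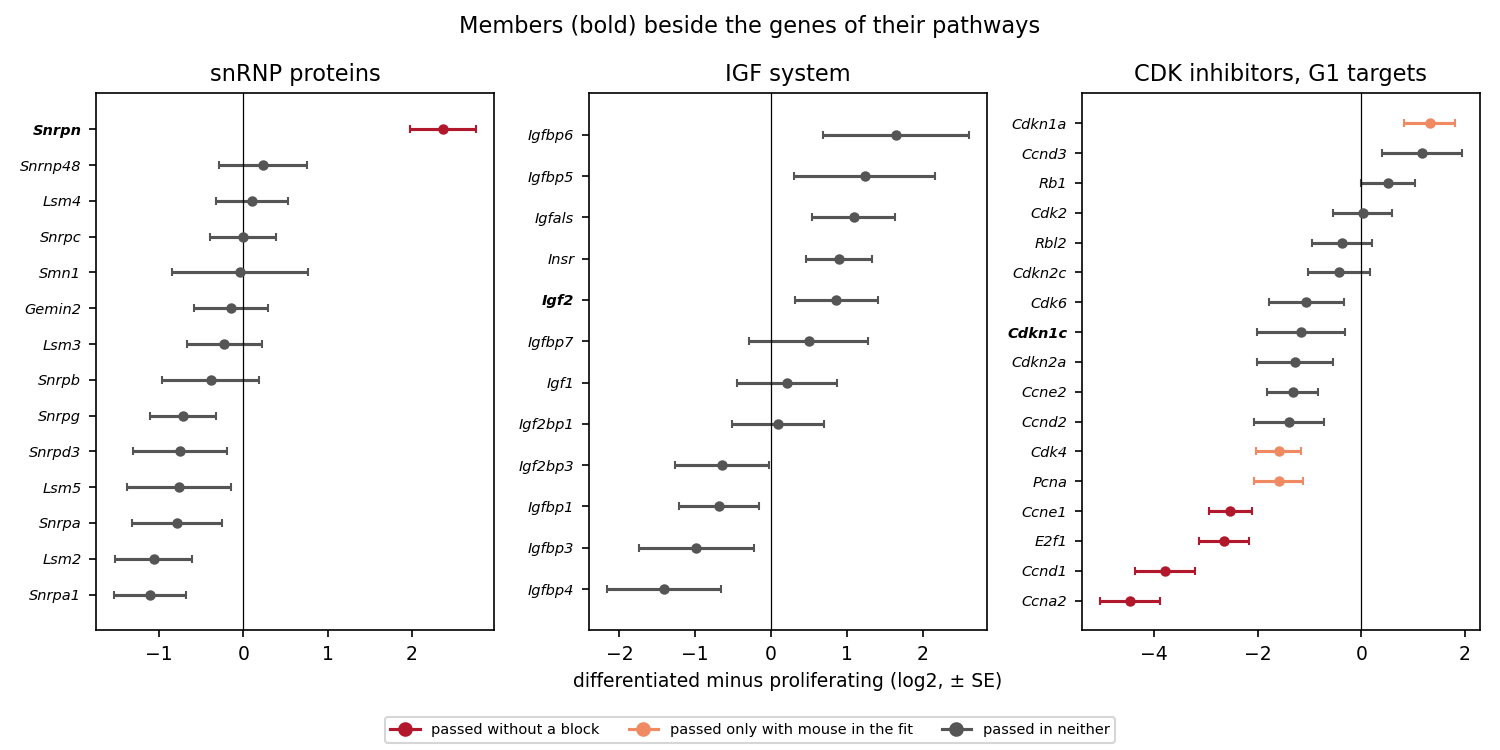
Log2 difference, differentiated minus proliferating, with its SE from limma for measured snRNP genes, genes of the insulin-like growth factor system, and cyclin-dependent kinase inhibitors with their G1 targets, 3 arrays per group. Snrpn, at 2.37, is the only coloured point in its panel, and the growth factor panel has none. Of the 17 inhibitors and G1 targets, 4 that passed without a block are in red below 0. Cdkn1a, Cdk4 and Pcna, in orange, passed with mouse as a random effect but not without a block or with a fixed block. Cdk4 also passed without a block when the pseudocount was used (limma adjusted p = 0.0400).

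The genes most like each member over the 6 arrays were found by Pearson's r of log2 values among 6121 named genes, as a description, with arrays that share mice and media. For Snrpn these were Rilpl1 (r = 0.995), Wwox (0.994), Limk2 (0.993), Aebp2 (0.987) and Thrsp (0.986). In all 5 the groups did not overlap, as for Snrpn, which follows from how they were picked. Over all features with 6 values the groups did not overlap for 20.7%. Rilpl1 read 9.33, 8.19 and 8.33 in differentiated against 3.38, 3.39 and 2.92 in proliferating replicates 1 to 3, and its difference of 1.42 passed in the fit with a random effect (limma adjusted p = 0.0170). Thrsp, a regulator of lipid synthesis, rose by 3.85 (limma adjusted p = 0.0201), with its proliferating values all under the dim mark. Snurf had r = 0.82 with Snrpn.

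For Igf2 they were Hivep2 (r = 0.993), Arpp21 (0.992), Dtna (0.989), Plekho1 (0.987) and Cacna1s (0.986). Proliferating replicate 1 lay within the range of the differentiated cultures for 4 of the 5, as for Igf2, and above it for Plekho1. This likeness to Igf2 follows from how the genes were picked. Cacna1s, the voltage sensor of skeletal muscle, read 29.6, 25.7 and 18.9 in differentiated against 19.1, 0.364 and 1.86 in proliferating replicates 1 to 3, and did not pass (limma adjusted p = 0.255). Myog, which encodes myogenin, had r = 0.96 with Igf2 and read 210, 83.7 and 112 in differentiated against 142, 18.3 and 44.8 in proliferating replicates 1 to 3. It was thus also high in proliferating replicate 1.

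For Cdkn1c they were Fam107b (r = 0.982), Gsr (0.967), Ets2 (0.966), Htra1 (0.964) and Pla2g2e (0.962). All 5 were lowest in differentiated replicate 2, as Cdkn1c was, and their groups overlapped. Both follow from how the genes were picked. Gsr, glutathione reductase, read 1.99, 0.553 and 1.32 in differentiated against 1.79, 1.60 and 2.35 in proliferating replicates 1 to 3, and none of the 5 passed in any of the 3 fits.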

How the data were processed

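RNA of 3 differentiated and 3 proliferating satellite cell cultures was measured on 1-colour arrays. The authors deposited linear intensities with array medians just under 1 and some values at or under 0. The sources used here do not name the scanner software or the scaling. Bacterial control mRNAs were added for normalization per the labels' protocols. Features were named from the platform annotation, 6373 with 1 symbol and 4127 with none, all 6373 matched by Entrez ID to RefSeq on GRCm38.p6.

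Intensities under 0.0236, the 1st percentile of positive values, were set to it before taking log2. Array medians differed by at most 0.0908 on that scale, and no scaling was added. The 10186 features with at least 2 values per group entered a limma 3.58.1 fit (lmFit, eBayes, R 4.3.3) with a single term for group, and p-values were adjusted by Benjamini-Hochberg over all of them, with a threshold of 0.05. The fits without a block and with a fixed block were tested on simulated data that held no shared mouse effect. The fit with a random effect was not tested in this way. Differences are differentiated minus proliferating, and lists use 1 feature per gene, the one with the highest mean. Windows before start sites were aligned with Biopython 1.88 in Python 3.11.15.

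The series design says that each mouse gave both cultures, so the numbers pair the arrays. Residuals of same-numbered arrays correlated at 0.42, 0.37 and 0.28, over the required 0.1. Mouse as a fixed block and as a random effect (correlation 0.535) were alternatives, as were another floor, a pseudocount, 2 scalings (quantile normalization and median centring), dropping dim or incomplete features, a trended and robust prior, another feature per gene, and leave-one-out fits.

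The members and lists were chosen with earlier results of these data known. The naming rule took the members, a panel of 38 genes (26 measured), up to 2 rises and 2 falls per list or the gene with the smallest p, the 5 genes most correlated with each member and the nearest gene with a named feature on either side. It gave 53 genes, and Peg12, Tnni2, Tnnt3, Tspan32 and Dusp8 were added after their values were seen. H19, Igf2r, Grb10, Meg3, Ndn and Cdkn1b, which are on the lists, were not analysed here.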

Additional observations from a re-analysis of the deposited data

How the results depend on the processing

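Igf2, Cdkn1c and Snrpn kept the sign of their difference under all 19 alternatives. Igf2 and Cdkn1c passed in none, and Snrpn passed in the 10 that use all 6 arrays (2.26 to 2.37). Leaving out 1 array or mouse gave 2.23 to 2.47 for Snrpn and ended the call each time in limma (adjusted p between 0.0582 and 0.348). For Igf2 the differences ran from 0.38 to 1.37, and for Cdkn1c from -1.96 to -0.30. The number of features past the threshold, 132 in the reported fit, was 243 with a floor at the 10th percentile, 393 with the pseudocount, 201 after quantile normalization, 322 without the dimmest features and 388 with a trended and robust prior. The replicate block gave 146 features as a fixed block and 1054 as a random effect, and Igf2 and Cdkn1c passed with neither. Leaving out 1 array or mouse gave 0 to 179 features. The 0 came without differentiated replicate 2 or 3, proliferating replicate 2 or 3, or any mouse, with 853 to 1518 features at an unadjusted p under 0.05 in limma, and 59 passed without differentiated replicate 1. Of 122 measured list genes 13 passed in the reported fit, where 0.285% of all features rose and 1.01% fell. A list of genes of dividing cells held 8 of these calls, all falls, among 16 measured. Ccna2 is on that list and on the list of G1 targets. The myogenic differentiation list held 1, a rise, among 17. The list genes that passed were 24 with the pseudocount, 20 without the dimmest features and 26 with the trended prior. They were 34 with the random replicate block, and 0 to 15 on leaving out 1 array or mouse. Over the 58 named genes, 956 of 1094 alternative values kept sign and call, 67 lost and 36 gained the call, and 35, in 12 genes that passed in neither setting, changed sign. Scaling moved the median of all features to 0.04 after quantile normalization, from 0.20. With 3 arrays per group small differences are not detectable, and dim features have a size limited by background.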
